A study of Mus musculus with 2 samples.

Results

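The genes of the cytosolic ribosomal proteins were compared between mouse effector CD8+ T cells stimulated once in culture and the same kind of cells stimulated again. Members were chosen by gene symbol, with earlier results of these data known. They were probes annotated to exactly 1 symbol that starts with Rpl or Rps and a digit, the stalk symbols Rplp0, Rplp1 and Rplp2, and Rpsa, leaving out the S6 kinases and symbols of pseudogenes. This gave 71 genes on 75 probes, of which 68 genes had a value on both arrays, out of 14150 such genes in all. By symbol, 45 of the 68 belong to the large and 23 to the small subunit. The set is not purely ribosomal. Rps19bp1 matched the pattern but encodes a binding partner of a ribosomal protein. A separate matter is that 5 members (Rpl3l, Rpl7l1, Rpl22l1, Rpl36al and Rpl39l) are paralogs of other members. Among the 3 genes left out, Rps10 had no value, Rps27l had one on array 2 alone and Rps23rg1, a retrogene, on array 1 alone.

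The cells came from the pmel mouse, a transgenic line whose CD8+ T cells carry one T cell receptor, against a melanocyte antigen. On each of 2 two-channel arrays, total RNA of cells after 1 stimulation was in channel 1 and of cells after 2 stimulations in channel 2, and the second array was a repeat of the first. Strain background, age, number of animals, culture conditions and whether the repeat used new RNA are not given in the labels. The spread between the arrays may therefore be technical. Each value is a deposited log ratio, taken as log2, centred near 0 on each array, with medians of 0.01 and 0.02 over all probes. A shift shared by all genes cannot be seen in such values, and the signal behind each ratio is not known. The numerator is not stated. The titles and channel numbers name the cells after 1 stimulation first, so a positive value likely means more RNA after 1 stimulation, on that order alone, and the sides swap if the order was the other way. If the values were natural logs, the folds below would be too small. In bulk RNA, fewer cells of a type and less RNA per cell cannot be told apart.

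Ribosomal proteins fold onto the ribosomal RNAs to make the small subunit, which reads the message, and the large subunit, which joins amino acids. Each ribosome needs about equal amounts of them, and lymphocytes that enter division step up ribosome production. Their messages start with a tract of pyrimidines, the terminal oligopyrimidine or TOP start, through which mTOR and the RNA-binding protein LARP1 control how well they are translated, largely apart from how much message there is. Genes of this family also have many near-identical pseudogene copies. In the RefSeq gene table, 50 of the 68 members had pseudogenes named after them, 236 in all. Probe sequences were not used here, so whether a probe also reads a copy was not tested.

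The start regions of several members that the results turn on are shown first, 4 stretches of the genes with the highest and the lowest means and 4 that hold a motif on which the family was compared. Windows came from the RefSeq promoter table (GRCm38.p6), which held 57 of the 68 members, with several start sites for 9 of them. Each line gives 100 bases before the annotated start and 15 bases from it, with 2 motifs in capitals: the pyrimidine-rich letters CTCTTTC and the core CCGGAAG, which ETS family factors such as GABP recognise. Both were searched on both strands, and they can overlap each other by 1 base at most. Rpl22 has 2 annotated starts, at chr4:152324336-152324450 and chr4:152325626-152325740, both on the plus strand, and its paralog Rpl22l1 has 1, at chr3:28805408-28805522 on the plus strand. Rpl7l1, the other paralog far on the negative side, lies at chr17:46782642-46782756 on the minus strand.
Rpl22, first start: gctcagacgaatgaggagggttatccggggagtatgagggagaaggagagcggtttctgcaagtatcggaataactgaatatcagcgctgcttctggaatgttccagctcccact
Rpl22, second start: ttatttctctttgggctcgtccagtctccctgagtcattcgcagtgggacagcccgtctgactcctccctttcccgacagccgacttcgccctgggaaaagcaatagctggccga
Rpl22l1: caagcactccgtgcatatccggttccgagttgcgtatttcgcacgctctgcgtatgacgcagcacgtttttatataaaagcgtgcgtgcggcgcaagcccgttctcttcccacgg
Rpl7l1: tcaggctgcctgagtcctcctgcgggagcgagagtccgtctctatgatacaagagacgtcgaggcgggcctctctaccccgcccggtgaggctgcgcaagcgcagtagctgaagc
Neither motif lies in these 4 stretches. The next 4 hold one or both, and come from members on opposite sides of the ratio: Rpl38 (chr11:114668480-114668594, plus strand) and Rpl11 (chr4:136053379-136053493, minus strand) were positive on both arrays, Rps26 (chr10:128626492-128626606, minus strand) and Rps25 (chr9:44407614-44407728, plus strand) negative on both.
Rpl38: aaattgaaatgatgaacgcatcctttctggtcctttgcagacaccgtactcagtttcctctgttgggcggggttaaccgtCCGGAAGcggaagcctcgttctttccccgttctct
Rpl11: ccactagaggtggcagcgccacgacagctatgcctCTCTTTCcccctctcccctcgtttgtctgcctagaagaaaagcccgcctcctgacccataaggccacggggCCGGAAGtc
Rps26: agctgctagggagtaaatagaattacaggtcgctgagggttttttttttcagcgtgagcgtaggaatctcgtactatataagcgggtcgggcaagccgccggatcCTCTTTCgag
Rps25: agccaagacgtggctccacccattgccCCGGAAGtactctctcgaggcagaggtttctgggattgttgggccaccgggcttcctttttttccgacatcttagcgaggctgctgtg

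Most ribosomal protein genes sat slightly on the positive side, and none was far from a ratio of 1. Of the 68, 31 (45.6%) were positive on both arrays, where 29.6% of all genes were. There were 12 (17.6%) negative on both, against 33.6% of all genes, and 25 without the same sign on both arrays, a share of 36.8% like the 36.8% of all genes. The median log2 ratio of the members was 0.10, with 0.13 on array 1 and 0.12 on array 2, beside -0.02 over all genes. The difference between these medians was 0.15 on array 1 and 0.13 on array 2, and an exact sign-flip permutation test over the 2 arrays gave a two-sided p = 0.5, the smallest it can give. Means per gene ran from -0.66 to 0.55, so the farthest member differed by 1.57-fold. No member reached 2-fold on both arrays, as 0.954% of all genes did.

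No single member passed limma's moderated test, in which each gene's mean over the arrays was set against 0 and p-values were adjusted by Benjamini-Hochberg over 14150 genes. The count at an adjusted p under 0.05 was 0 of 68, as it was 0 of all genes, and the smallest adjusted p of a member was 0.190. The robust prior of limma gave 0 as well. At an unadjusted p under 0.05 there were 4 members on the positive side, or 5.88%, where 5.86% of all genes were. On the negative side there were 2, or 2.94%, against 10.3% of all genes. The 95% confidence interval of a member's mean had a median half-width of 0.39, wider than the middle 50% of the members' means, which lay between -0.07 and 0.27. Members are therefore described by their 2 values and not as changed.

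**Figure D1:**
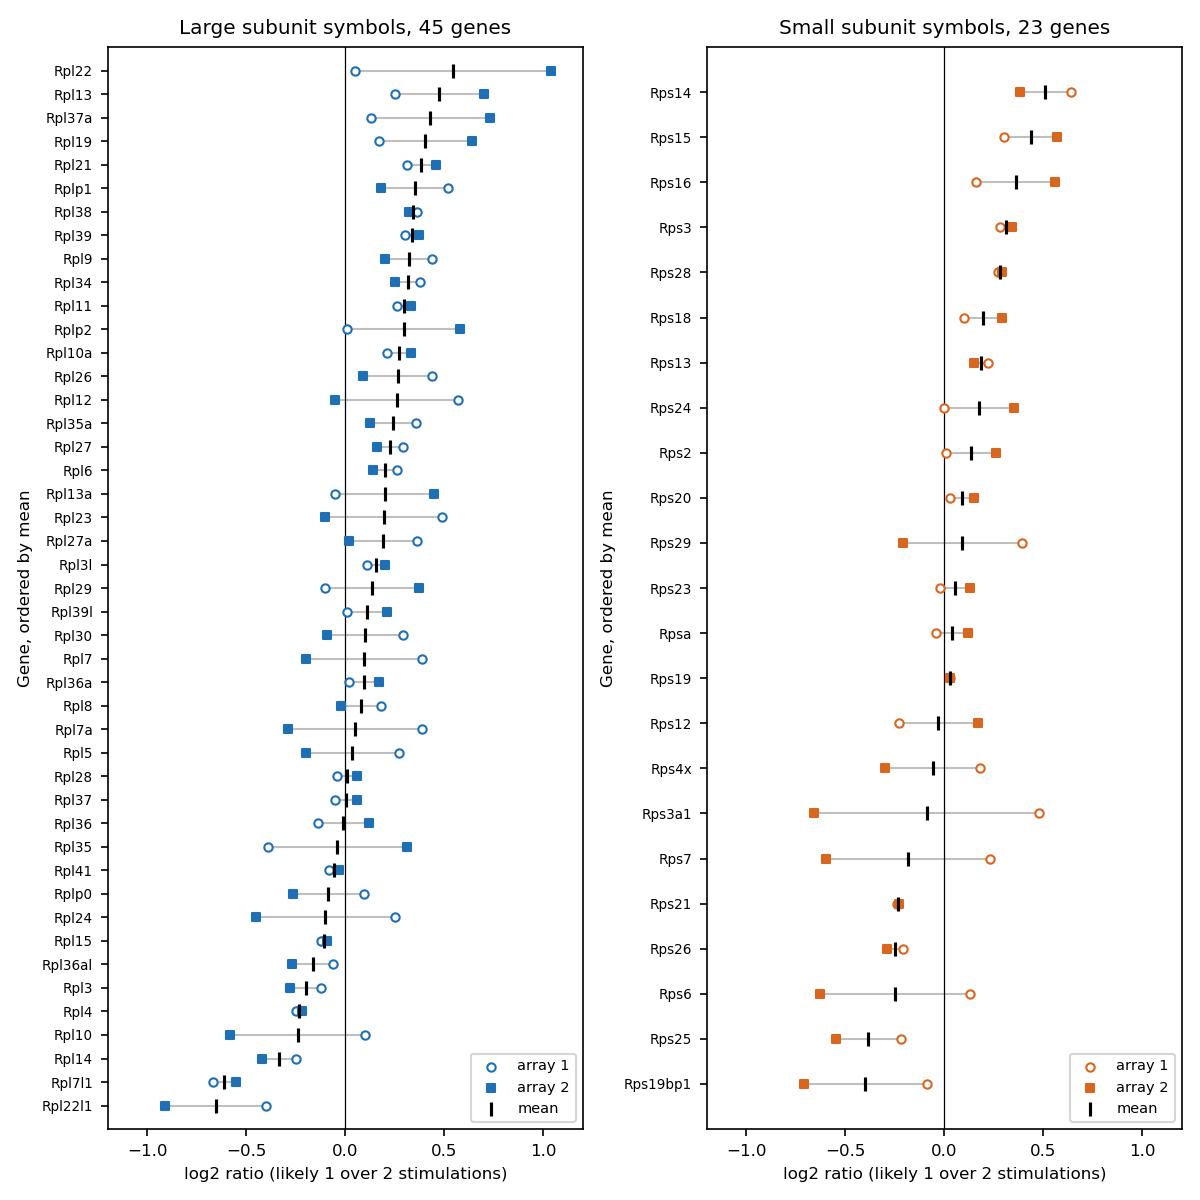
Log2 ratio of each ribosomal protein gene on array 1 (open circles) and array 2 (filled squares), with the mean as a black tick, for 45 large subunit symbols (left) and 23 small subunit symbols (right), each ordered by mean. Most means lie a little right of 0, 31 genes have both points right of 0, and the paralogs Rpl22l1 and Rpl7l1 stand lowest on the left panel.

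The order of the large and small subunit medians turned between the arrays. The large subunit median was 0.14 and the small subunit median 0.055, a difference of 0.08. On array 1 the medians were 0.17 and 0.10, while on array 2 they were 0.12 and 0.13. The exact sign-flip permutation test of the 2 differences, 0.07 and -0.01, gave a two-sided p = 1, where 0.5 is the smallest it can give. By sign, 21 of 45 large and 10 of 23 small subunit genes were positive on both arrays, and 8 and 4 were negative on both. The spread within each subunit, an SD of 0.26 over large and 0.25 over small subunit genes, was about 3 times the difference between their medians.

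The positive end of the large subunit was led by Rpl22, an RNA-binding ribosomal protein that developing alpha-beta T cells need. It read 0.05 on array 1 and 1.04 on array 2, so its mean of 0.55 ± 0.70 (SD, n = 2) rests on array 2. Rpl13 read 0.25 and 0.70, Rpl37a 0.13 and 0.73, and Rpl19, which lies near the exit of the peptide tunnel, 0.17 and 0.64. All of these were higher on array 2 than on array 1. Rpl21 agreed better, at 0.31 and 0.46, and Rpl38, a protein known for its part in translating Hox messages, agreed closely at 0.36 and 0.32. The mean of Rpl21 was 0.39 ± 0.11 and that of Rpl38 0.34 ± 0.03 (both SD, n = 2).

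At the positive end of the small subunit stood Rps14, a protein of the message exit channel, with 0.64 and 0.38 and a mean of 0.51 ± 0.18 (SD, n = 2). limma's 95% interval for it ran from 0.11 to 0.91, with an adjusted p of 0.239. Rps15, which sits near the decoding site, read 0.30 and 0.57, and Rps16 read 0.16 and 0.56. Rps3, a protein of the message entry channel that also acts in DNA repair, was at 0.28 and 0.34 and Rps28 at 0.27 and 0.29. These 5 genes were positive on both arrays without exception. Rps13 (0.22 and 0.15), Rps18 (0.10 and 0.29) and Rps20 (0.03 and 0.15) were smaller values of the same sign.

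On the negative side the 2 lowest members were paralogs, which are not counted here among the core genes. Rpl22l1 read -0.40 and -0.91, with a mean of -0.66 ± 0.36 (SD, n = 2), and Rpl7l1, the relative of Rpl7, read -0.67 and -0.55, with a mean of -0.61 ± 0.08 (SD, n = 2). limma's 95% intervals excluded 0 for both, from -1.14 to -0.17 and from -0.98 to -0.24, with adjusted p-values of 0.225 and 0.190. Next came Rps19bp1 at -0.09 and -0.71, which is no ribosomal protein. Of the core genes, Rps25, known for its role in initiation at viral internal entry sites, was lowest at -0.22 and -0.55. Rpl14 read -0.25 and -0.42, and Rps26, a protein at the message exit, -0.21 and -0.29. Over the 6 leading genes of either side, the adjusted p in limma's test ranged from 0.190 to 0.441.

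A few core genes stayed on the negative side with little spread. Rps21 read -0.24 and -0.23, and Rpl4, whose long loop lines the peptide tunnel, -0.25 and -0.22. Rpl3, which reaches toward the catalytic centre of the large subunit, read -0.12 and -0.28, and Rpl15 -0.12 and -0.09. Each of these was within 0.3 of 0, so the close agreement between arrays concerns small values. Without the 5 paralogs and Rps19bp1, 62 members were left, with a median of 0.12, of which 29 had 2 positive and 8 had 2 negative values.

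The other members lay between these ends. Rpl9 (0.44 and 0.20), Rpl34 (0.38 and 0.25), Rpl10a (0.21 and 0.33), Rpl27 (0.29 and 0.16), Rpl6 (0.26 and 0.14) and Rpl27a (0.36 and 0.02) were all large subunit genes with 2 positive values. Rpl30 (0.29 and -0.09), Rpl8 (0.18 and -0.02) and Rps4x (0.18 and -0.30) were positive on array 1 alone. Rpl29 (-0.10 and 0.37), Rps12 (-0.23 and 0.17), Rpl36 (-0.14 and 0.12), Rpl37 (-0.05 and 0.06) and Rpl28 (-0.04 and 0.06) were positive on array 2 alone, and Rps24 read 0.00 and 0.35. Rpl41, which encodes the shortest ribosomal protein, was near 0 at -0.08 and -0.03. Rps12 had the most pseudogenes named after it, 23.

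The paralogs were set beside the genes they resemble. For Rpl22 and Rpl22l1 the difference, gene minus paralog, was 0.45 on array 1 and 1.95 on array 2, a mean of 1.2 ± 1.06 (SD, n = 2). The Rpl22 protein is known to bind the message of Rpl22l1 and keep it low. Rpl7 read 0.39 and -0.20 against -0.67 and -0.55 of Rpl7l1, a difference of 0.71 ± 0.50 (SD, n = 2). Both paralogs were below their partner on both arrays. The remaining pairs lay closer. Rpl36a read 0.02 and 0.17 and Rpl36al -0.06 and -0.27. Rpl39, a short protein inside the exit tunnel, read 0.30 and 0.37, and Rpl39l, a relative most abundant in male germ cells, 0.01 and 0.21. For Rpl3 and the muscle-enriched Rpl3l the order was the other way, with Rpl3l at 0.11 and 0.20 and a difference of -0.36 ± 0.18 (SD, n = 2). In 4 of the 5 pairs the paralog was thus the lower of the pair on both arrays. With 2 arrays no exact test of a single pair can go below p = 0.5. Rps27 was not analysed here, and its paralog Rps27l, a target of p53, read -1.22 on array 2 with no value on array 1.

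**Figure D2:**
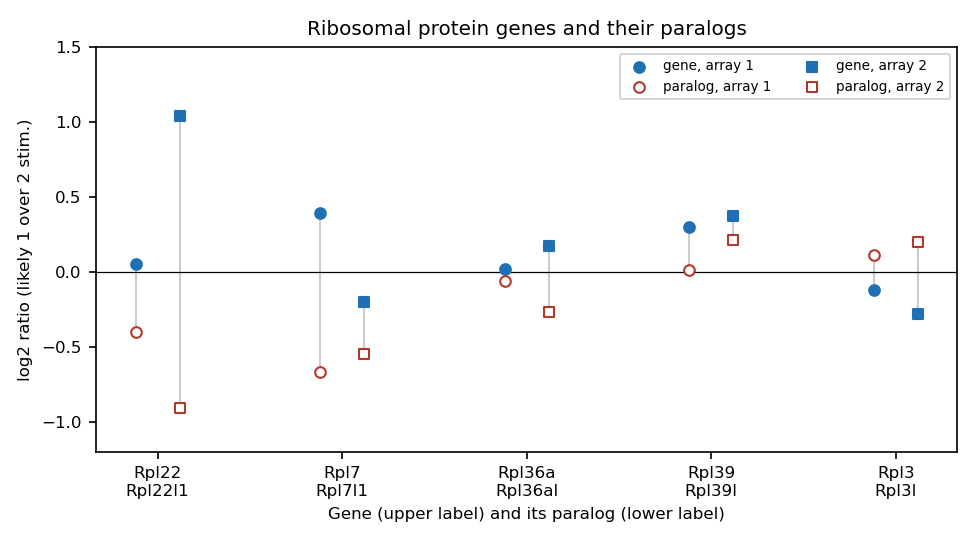
Log2 ratio of 5 ribosomal protein genes (filled blue) and their paralogs (open red) on array 1 (circles) and array 2 (squares), joined by a grey line within an array. The paralog lies below its partner on both arrays in 4 pairs, and above it for Rpl3 and Rpl3l.

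Members were also grouped by function. The stalk recruits elongation factors to the large subunit. Its proteins Rplp1 (0.52 and 0.18) and Rplp2 (0.01 and 0.58) were positive on both arrays, Rpl12, at the base of the stalk, read 0.57 and -0.05, and Rplp0 0.10 and -0.27. The 2 Rplp0 probes disagreed on array 1, with -0.12 and -0.52 for one and 0.31 and -0.01 for the other. Rpl5 and Rpl11 join the 5S ribosomal RNA and, when ribosome assembly is disturbed, bind and inhibit Mdm2, the regulator of p53. Rpl11 read 0.26 and 0.33, Rpl5 0.27 and -0.20.

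Among proteins of the peptide tunnel, 3 of 5 measured were positive on both arrays. They were Rpl19 and Rpl39, given above, and Rpl26 at 0.44 and 0.09, while Rpl4 was negative on both and Rpl35 read -0.39 and 0.31. Of 7 proteins along the message channel and decoding site, 5 had 2 positive values, and the medians were 0.27 and 0.29. Beside Rps3, Rps14, Rps15 and Rps28 these included Rps2, at 0.01 and 0.26. Rps23, at the decoding site, read -0.02 and 0.13, and Rps26 was negative on both. A further group held 7 genes mutated in Diamond-Blackfan anaemia, a failure of red cell production, and not every member linked to that disease. Its median was 0.035, and 3 had 2 positive values and 1 had 2 negative ones. Rps19, the gene most often affected, read 0.03 on both arrays, while Rps7 read 0.23 and -0.60. These groups were drawn up after the values were seen, and Rps26, Rpl5 and Rpl11 each belong to 2 of them.

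Several members with further known roles had a different sign on each array. Rps6, the substrate of S6 kinase downstream of mTOR, read 0.13 and -0.63. Rpl10, which is added last in maturation of the large subunit, read 0.10 and -0.58. Rpl13a, which can leave the ribosome to silence inflammatory messages, read -0.05 and 0.45. Rpsa, also known as the laminin receptor, averaged -0.045 and 0.12, but its 2 probes ran in opposite directions, 0.24 and -0.06 against -0.33 and 0.30. The 2 Rps18 probes differed on array 1, at -0.18 and 0.38, and the 2 Rpl35a probes were positive on both arrays.

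The 2 arrays agreed poorly on the order of the members. Across the 68 genes, which are not independent replicates and share both arrays, Pearson's r between the arrays was 0.24 and Spearman's rho 0.20, where all genes gave 0.52 and 0.44. Without the paralogs and Rps19bp1, r was 0.072 over 62 genes. The SD of the difference between arrays was 0.41 for the members and 0.42 for all genes. The members' own means were less spread, with an SD of 0.26 against 0.36. The arrays differed by more than 0.5 for 16 members, or 23.5%, where 18.4% of all genes did. Of the 68 members, 12 were lower on array 2 and 4 were higher by that much. Of all 14150 genes, 9.62% were lower and 8.80% higher. Rps3a1 had the widest gap, with 0.48 and -0.66, followed by Rpl22 and then Rps7. Rps6, Rps29 (0.39 and -0.21), Rpl7a (0.39 and -0.29), Rpl24 (0.25 and -0.45) and Rpl23 (0.49 and -0.10) were also positive on array 1 and negative on array 2. In all, 15 members were positive on array 1 and negative on array 2, and 9 the reverse, beside 2380 and 2447 of all genes.

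**Figure D3:**
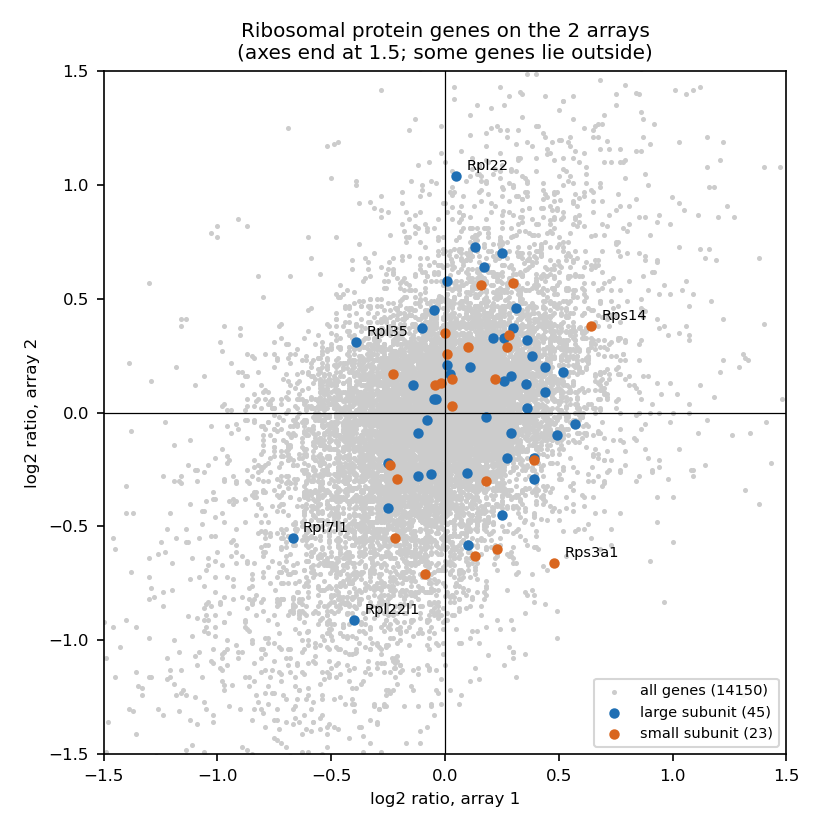
Log2 ratio on array 1 (horizontal) against array 2 (vertical) for all 14150 genes (grey) and for large (blue) and small (orange) subunit genes, with axes cut at 1.5 on each side. Members cluster near the origin with 31 in the upper right quadrant, and those such as Rps3a1 in the lower right quadrant had opposite signs on the arrays.

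Other genes of translation lay elsewhere. Of 67 mitochondrial ribosomal protein genes, which serve the separate ribosomes of mitochondria, 32 were negative on both arrays and 8 positive on both. Their median was -0.16. The median of the cytosolic genes was higher by 0.19 on array 1 and by 0.38 on array 2. Of 39 ribosome biogenesis genes, 23 (59.0%) read negative and 4 (10.3%) positive on each array. Their median was -0.34, with -0.07 on array 1 and -0.46 on array 2. The cytosolic ribosomal proteins were higher by 0.20 and 0.58. The exact sign-flip permutation test over the 2 arrays gave p = 0.5 for each of these differences, again the smallest it can give. It returns that value whenever the 2 signs agree, so it decides nothing here. Both comparisons ran the same way on both arrays, with larger gaps on array 2. Among the biogenesis genes, 3 were chosen as examples after their values were seen. Nop56, a core protein of box C/D particles, read -0.25 and -1.59, Mrto4, which acts in stalk assembly, -0.73 and -1.14, and fibrillarin (Fbl) -0.21 and -0.39. Of these 3, none passed limma's test, and for Mrto4 the adjusted p was 0.156.

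Genes of elongation and other TOP messages did not sit with the ribosomal proteins. Their median was -0.20 over 21 genes, of which 11 were negative on both arrays and 6 positive on both. Vim, which encodes vimentin, was the lowest at -1.16 and -1.23, the 1 gene of the list at 2-fold on both arrays. The elongation factor genes Eef1a1 (-0.24 and -1.08) and Eef1g (-0.68 and -0.87) were negative, and so were Eef2 and Eef1d, at smaller values. On the positive side were Tpt1 (0.23 and 0.38) and the initiation factor subunits Eif3e (0.63 and 0.22), Eif3f (0.22 and 0.27) and Eif3h (0.36 and 0.18). Other initiation factor genes were negative, Eif3l at -0.40 and -0.52 and Eif4b at -0.28 and -0.71. The difference from the ribosomal proteins was 0.18 on array 1 and 0.39 on array 2. The exact sign-flip permutation test gave p = 0.5, again the smallest it can give. Fau, which encodes a small subunit protein as a fusion with a ubiquitin-like protein and does not match the symbol rule, read 0.65 and 1.24. Its mean of 0.95 ± 0.42 (SD, n = 2) was above that of every member, with an adjusted p of 0.172 in limma's test.

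A list of 16 genes held regulators of ribosomal protein synthesis, and with them Mdm2 and Maf1. Of these, 5 (31.25%) were positive and 7 (43.75%) negative on both arrays, where 29.6% and 33.6% of all genes were. Larp1, which holds TOP messages, read -0.30 and -1.10, and Gabpa, an ETS family factor, -0.45 and -0.83. Mtor was at 0.005 and -0.16, while Maf1, a repressor of RNA polymerase III, read 0.34 and 1.04. The TOR activator Rheb read -0.10 and -0.78. Mdm2, the partner of Rpl5 and Rpl11, was at -0.56 and -0.50. Beside Maf1, the genes with 2 positive values were Rps6kb2 (0.14 and 0.57), Eif4ebp1 (0.23 and 0.17), Tsc2 (0.08 and 0.30) and Tsc1 (0.12 and 0.03). Myc read 0.30 and -1.05. None of the 16 genes passed limma's test, the smallest adjusted p being 0.206.

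**Figure D4:**
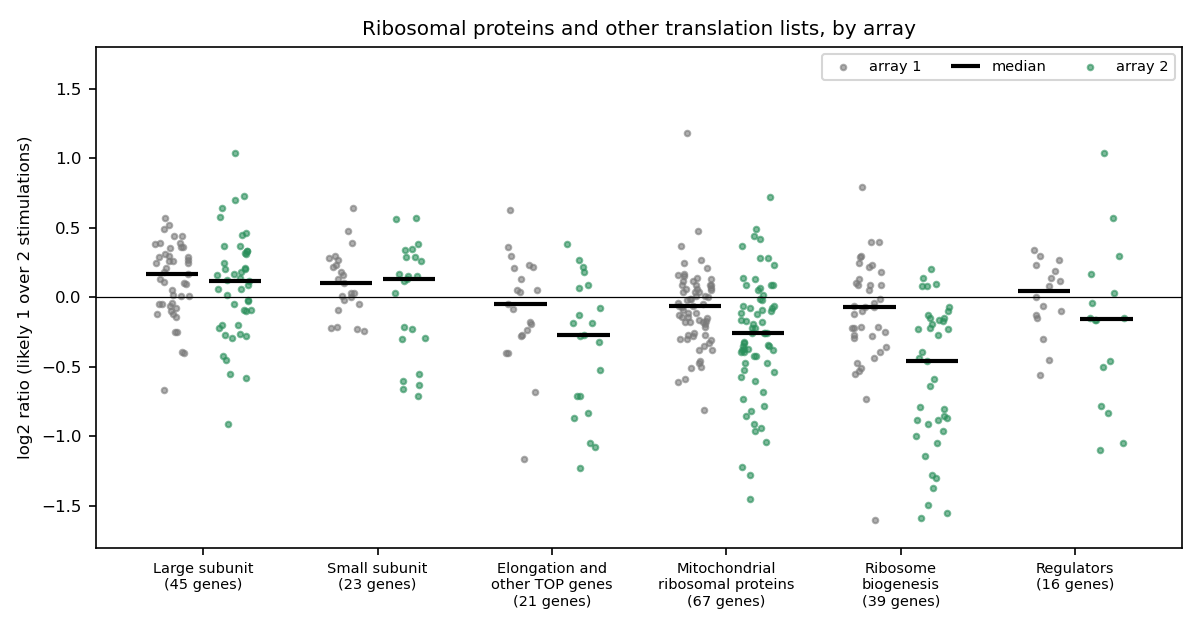
Log2 ratios of single genes on array 1 (grey) and array 2 (green), with the median of each list as a black bar, for both subunits and 4 other translation lists. The subunit medians lie between 0.10 and 0.17. The medians of mitochondrial ribosomal proteins and ribosome biogenesis genes lie below 0 on both arrays, only slightly on array 1.

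The start regions were compared over the whole window of 300 bases, 250 before and 50 after the start. CTCTTTC was present on either strand in 16 of 57 members, or 28.1%, against 8.92% of 17491 protein-coding genes and 9.28% of all 27025 genes in the table. CCGGAAG was present in 23 of 57, or 40.4%, against 12.9% and 9.93%. Over both subunits together, members with CTCTTTC had a median of 0.075 and those without it 0.14. With CCGGAAG the median was 0.11 and without it 0.13. The subunits taken apart differed in this. In the large subunit the median with CTCTTTC was 0.24 over 11 genes against 0.13 over 26 without it, and in the small subunit -0.09 over 5 against 0.14 over 15. For CCGGAAG they were 0.23 over 14 genes against 0.095 over 23 in the large and -0.19 over 9 against 0.18 over 11 in the small subunit. The negative small subunit medians rested mostly on array 2. With CTCTTTC they were -0.02 on array 1 and -0.23 on array 2, and with CCGGAAG 0.01 and -0.29. These splits were not tested. These are letters in a window around an annotated start, and say nothing of a factor's binding.

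Markers of other cells were also read, as a check on the cells in culture. Of 14 B cell markers, 10 (71.4%) had 2 positive values and 2 (14.3%) had 2 negative values, where 29.6% and 33.6% of all genes did. The medians were 0.16 on array 1 and 0.76 on array 2. Their median was 0.46, or 0.13 without Cd74 and the class II genes. In that smaller set of 10 genes, 6 had 2 positive and 2 had 2 negative values. Cd79b read 0.67 and 1.62 and Cd79a 0.31 and 1.06, while Ebf1 read -0.04 and -0.19 and Blk -0.05 and -0.04. Of the class II genes, H2-Eb1 read 0.57 and 2.84. Of 7 T cell markers, 5 (71.4%) had 2 positive values. Their median was 0.28. Cd8a read 0.37 and 0.90, while Cd3e (-0.09 and 0.45) and Thy1 (-0.365 and 0.06) changed sign between the arrays. The other lists had lower medians. The NK cell median was -0.26, with 2 of 3 genes negative on both arrays. Klrb1c read -0.77 and -1.88 and Ncr1 -0.27 and -0.25, while Klra8 was positive at 0.86 and 0.06. The median of 7 myeloid markers was -0.10, with -0.50 on array 1 and 0.15 on array 2. Of 3 platelet markers, with a median of 0.12, Pf4 read -0.75 and -2.16, Gp9 0.39 and 0.15, and Itga2b -0.04 and 0.28. The median of 3 erythroid markers was -0.005 and that of 2 CD4 T cell markers 0.06. The part of these cell types in the ribosomal protein values was not tested, and ratios give no level by which the CD8+ label could be checked.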

How the data were processed

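Ratios of 2 two-channel arrays were used as the authors deposited them, in a table taken as log2 values, 1 per probe and array. Scanner, background correction, normalization, dyes and build are not given in the sources used here. Of 21919 probes, 21427 had both values. Probes were named from the platform annotation, and probes of 1 gene were averaged (64 members had 1 probe and 4 had 2). All 68 members matched the RefSeq gene table by Entrez ID, with the same symbol. limma 3.58.1 in R 4.3.3 fitted an intercept per gene over both arrays (two-sided, 1 residual and 3.55 prior degrees of freedom, Benjamini-Hochberg over 14150 genes at 0.05). The limma fit alone was tested on simulated data, with the spread drawn from its own fitted prior. Lists are described by counts and medians. The exact sign-flip permutation test over 2 arrays cannot go below p = 0.5, so it cannot decide a difference between lists. Members and lists were chosen with earlier results of these data known, and the grouping by function after the values were seen. Full statistics went to the 6 members farthest on each side with 1 sign and to a fixed set including stalk, 5S and paralog genes. Alternatives were other centring, quantile normalization, probe handling, membership and leaving out each array.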

Additional observations from a re-analysis of the deposited data

How the results depend on the processing

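The ribosomal protein median stayed positive under every alternative run. It was 0.083 after centring each array on its median, 0.12 without the paralogs and Rps19bp1, where the large subunit median was 0.19, and 0.12 to 0.13 when an array was left out. On single arrays the large subunit median was 0.12 to 0.17 and the small subunit median 0.10 to 0.13. The difference between them, 0.08 over both arrays, ran from -0.01 without replicate 1 to 0.07 without replicate 2. It kept its sign under the alternatives that used both arrays, with 0.12 without the paralogs and Rps19bp1 and 0.03 among members whose arrays lay close. Members on the negative side numbered 21 to 27 on single arrays and those on the positive side 41 to 46. Among the 32 members whose arrays differed by less than the median gap of all genes, 18 were positive on both and 9 negative. Choosing members with close arrays favours the same sign on both, so this setting cannot check the sign counts. Of the 31 members given full statistics, 7 had the opposite sign on one array: Rpl13a (-0.05 to 0.45), Rpl7 (-0.20 to 0.39), Rpsa (-0.045 to 0.12), Rpl5 (-0.20 to 0.27), Rplp0 (-0.27 to 0.10), Rpl10 (-0.58 to 0.10) and Rps6 (-0.63 to 0.13). The cause was not tested. Over 124 pairs of such a member and another setting, none changed sign or passed the test. Keeping single values and taking the median over probes could not alter the means of these members. Their signs could therefore change only under centring and quantile normalization. The remaining members were not followed across settings. limma called 0 members under every setting run, and 4 to 7 members or probes of members had an unadjusted p under 0.05. Centring moved the median of all genes from -0.02 to -0.035. Each ratio already pairs both conditions on 1 array, so no replicate block could be added. Signal over background was not used here, and 2 arrays limit the precision.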

Other observations

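Probes of pseudogenes or of several symbols were left out by the symbol rule. The 2 probes annotated to Rps12-ps1 read -0.39 and 0.41, and 0.30 and 0.38, beside -0.23 and 0.17 for Rps12 itself. The probe of Rpl30-ps2 read 0.13 and -0.29, with Rpl30 at 0.29 and -0.09, and that of Rpl29-ps1 0.00 and 0.24, with Rpl29 at -0.10 and 0.37. The 2 probes shared by Rpl27a and other symbols read -0.02 and -0.12, and 0.06 and 0.19, beside 0.36 and 0.02 for Rpl27a. Rps23rg1 matched the rule but had a value on array 1 alone, 0.17.

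Myc, the nucleolar gene Npm1 and the assembly gene Brix1 each read exactly 0.30 on array 1 and -1.05 on array 2, on 3 separate probes. In limma's test the adjusted p was 0.629 for each. How often both values coincide between genes was not counted, and the cause was not tested.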
